A study of Mus musculus with 80 samples.

Results

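The genes of the proteasome were followed in muscle, liver, the inguinal white fat depot (iWAT) and the brown fat depot (BAT) of mice of 4 genotypes, which were WT, mice without Fgf21 (FGF21 KO), mice without Ucp1 (UCP1 KO) and mice without either gene (dKO). They were taken by symbol: every symbol made of Psma to Psmg and a number, together with Psme4, Pomp and Nfe2l1, which gave 52 of the 32764 gene symbols in the files. Of these, 2 symbols that the pattern also takes, Psmc3ip (a meiotic recombination factor) and Psme2b, are no proteasome subunits and were counted apart. The remaining 50 are 8 genes of the alpha ring and 7 of the constitutive beta ring of the 20S core, 3 immunoproteasome subunits (Psmb8, Psmb9, Psmb10), the thymoproteasome subunit Psmb11, 6 ATPases and 11 other subunits of the 19S cap, 8 assembly chaperones, 5 activators and inhibitors, and the transcription factor Nfe2l1.

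All mice were homozygous males on a C57BL/6J background. They were raised at 30 °C, and at 10 to 12 weeks of age the chow of all groups was replaced by a diet rich in fat and the temperature lowered to 23 °C, both for 3 weeks. The dKO mice were bred from the UCP1 KO and FGF21 KO lines, and both deletions are in the whole body. For each tissue 5 libraries per genotype were deposited, 80 in all, with 28691377 to 50380696 counts on genes per library. The labels of the double knockout write FGF12 in place of FGF21. No label names the mouse or numbers the libraries, so the p-values below measure the spread between libraries only.

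The 20S core is a barrel of stacked rings whose beta ring carries the cutting sites, and the 19S cap recognises ubiquitin-tagged proteins, unfolds them with its ATPase ring and feeds them into the barrel. Psmb6, Psmb7 and Psmb5 carry the caspase-like, trypsin-like and chymotrypsin-like activities. In newly built immunoproteasomes they are replaced by Psmb9, Psmb10 and Psmb8, which are induced by interferon gamma and abundant in lymphoid cells. Nfe2l1 drives transcription of proteasome genes when proteasome capacity is short, and in brown fat it is known to sustain proteasome activity during thermogenesis.

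The tissue labels and knockouts were checked first. Summed over the markers of each list, WT BAT libraries held 2868 to 3525 CPM (counts scaled to library size) of 6 brown adipocyte genes, against 29.7 to 81.9 CPM in WT iWAT. WT liver held 78377 to 83966 CPM of 5 hepatocyte genes, and WT muscle 125110 to 152911 CPM of 10 skeletal muscle genes. In BAT, Ucp1 had 98548 to 216085 counts in WT, 24291 to 60779 in UCP1 KO and 40641 to 90118 in dKO libraries, and Fgf21 had 7 to 10 counts in WT, 353 to 1728 in UCP1 KO and 0 to 3 in dKO libraries. In iWAT, Ucp1 had at most 776 counts in WT but 3942 to 20264 in the libraries labelled UCP1 KO and 196 to 1189 in those labelled dKO. Counts per gene do not show which part of Ucp1 the reads came from, and in iWAT UCP1 KO and dKO mean the libraries so labelled. In iWAT, 9 of 20 libraries stood apart by lymph node genes, as described with the immunoproteasome, and in BAT skeletal muscle genes ranged from 26.7 to 117 CPM in WT and from 59.0 to 8813 CPM in UCP1 KO libraries.

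In BAT of UCP1 KO mice, 1 proteasome subunit stood out. Psmb5, the chymotrypsin-like subunit, was about doubled, while most of the other core and cap subunits differed little from WT. Smaller rises were called for the ATPases Psmc2 and Psmc6, the transcription factor Nfe2l1 and the assembly chaperones Psmd5 and Psmg2. Of the 50 proteasome genes 48 were tested in BAT, and 6 of these (12.5%) passed an adjusted p under 0.01 in the edgeR quasi-likelihood test, all higher in UCP1 KO. DESeq2 called the same 6. Over all genes tested in BAT, 25.2% were called in either direction and 13.8% were called higher, so the share of the proteasome genes was near that of rising genes in general. Of the 48 genes, 10 had an unadjusted p under 0.05 in edgeR, against 48.9% of all genes. The median log2 fold change of the 48 genes was 0.08, against 0.01 over all genes. Psma8 (0 to 6 counts per BAT library) and Psmb11 (0 to 1 count) were not tested.

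**Figure D1:**
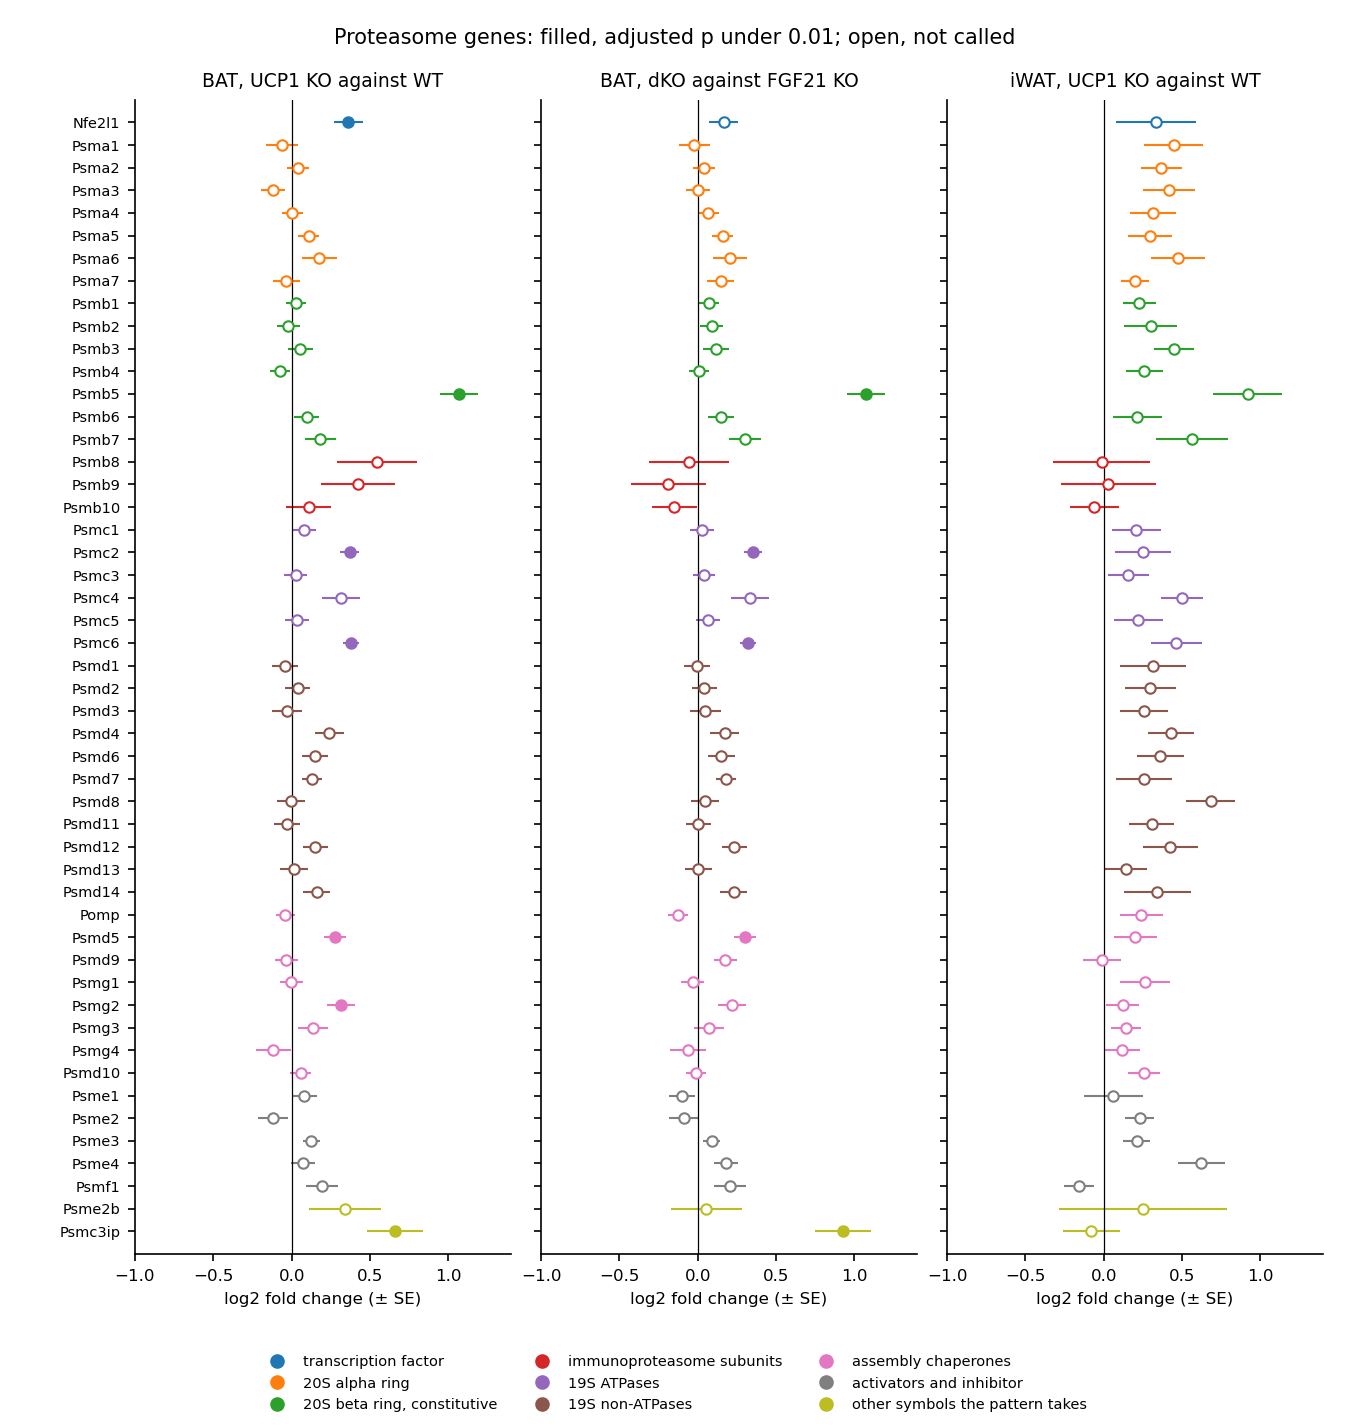
Log2 fold changes (horizontal axis, with standard errors as bars) of the tested proteasome genes by role for UCP1 KO against WT in BAT, dKO against FGF21 KO in BAT and UCP1 KO against WT in iWAT; filled points passed an adjusted p under 0.01 in edgeR. Psmb5 lies at 1.07, 1.08 and 0.92, and in iWAT the core and cap subunits lie to the right of 0 with no gene called.

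Psmb5 lies on chromosome 14 (GRCm38, 54614119 to 54618022, minus strand). In the 5 WT libraries of BAT it was measured at 82.4, 86.3, 91.1, 94.1 and 95.5 CPM (89.9 ± 5.46, SD, n = 5). In the 5 UCP1 KO libraries it was measured at 174.6, 176.9, 182.4, 183.8 and 224 CPM (188 ± 20.4, SD, n = 5). The groups did not overlap, and every UCP1 KO library was well above the highest WT library. The log2 fold change was 1.07 ± 0.12 (SE), a 2.1-fold difference, with an adjusted p of 3.27e-06 in edgeR and 0.00794 in an exact two-sided permutation test, the smallest that 5 against 5 libraries can give.

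The same comparison on the FGF21 KO background asks whether FGF21 is needed for this difference. Psmb5 was measured at 87.7, 87.7, 95.3, 99.6 and 100.5 CPM in FGF21 KO libraries and at 132, 184, 209, 222 and 245 CPM in dKO libraries. Again no libraries overlapped, although the dKO libraries spread more widely. The log2 fold change of dKO against FGF21 KO was 1.08 ± 0.12, with an adjusted p of 6.4e-06 in edgeR. The interaction, which is the difference between these fold changes, had a log2 value of -0.01 ± 0.17 (adjusted p = 0.999 in edgeR), so the fold changes with and without FGF21 were not shown to differ.

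Psmb5 moved apart from the ring it belongs to. Its level per kilobase of exon was 2.02 ± 0.09 times the median of the other 6 constitutive beta subunits in WT BAT and 2.07 ± 0.13 times in FGF21 KO BAT. The ratio was 4.11 ± 0.42 in UCP1 KO (3.47 to 4.52) and 3.99 ± 0.55 in dKO BAT (3.29 to 4.72), with no overlap between the libraries with and without UCP1. The other 6 constitutive beta subunits had a median log2 fold change of 0.04 in UCP1 KO against WT, and 0 of the 6 were called. In liver and muscle the ratio stayed between 1.35 and 1.89 in every library.

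**Figure D2:**
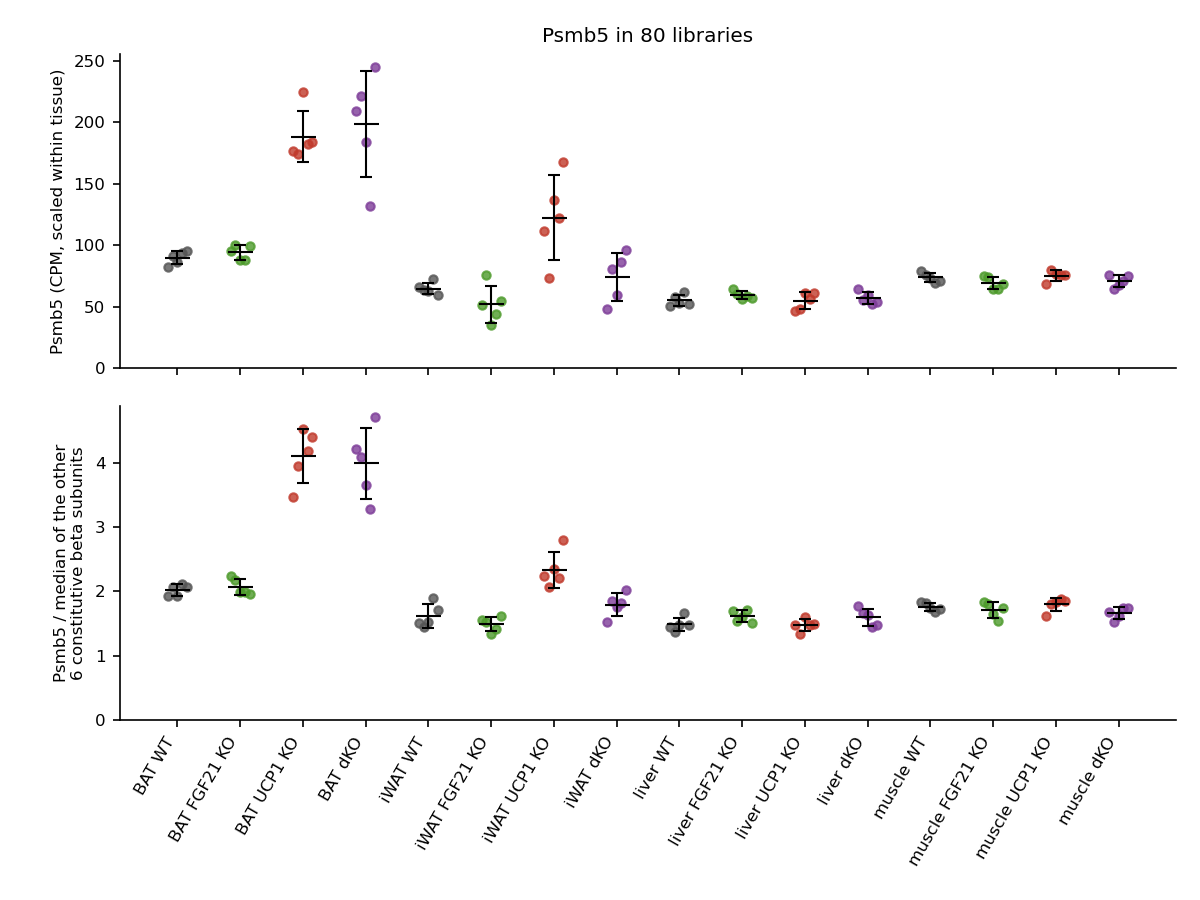
Psmb5 in each of the 80 libraries (points) with mean and SD (bars) for 16 groups; the upper panel gives CPM scaled within a tissue, the lower panel the ratio of Psmb5 to the median of the other 6 constitutive beta subunits per kilobase of exon. In BAT the ratio is near 2 with UCP1 and 3.29 to 4.72 without it, and it is also raised in iWAT of UCP1 KO (2.07 to 2.81).

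The alpha ring, which forms the gate of the barrel, showed no called gene among the 7 tested in edgeR. None had an unadjusted p under 0.05, against 48.9% of all genes, and DESeq2 also called none. Psma6 was measured at 136.3 to 148 CPM in WT and 119 to 218 CPM in UCP1 KO libraries (log2 fold change 0.18). Psma5 was measured at 56.8 to 59.4 and 58.8 to 70.2 CPM (0.11). Both groups overlapped for both genes. The median over the alpha ring was 0.00.

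Of the other catalytic subunits, Psmb6 (caspase-like) was measured at 86.8 to 95.8 CPM in WT and a mean of 98.6 ± 7.09 CPM (SD, n = 5) in UCP1 KO, with overlapping libraries (log2 fold change 0.10 ± 0.08, edgeR adjusted p = 0.364). Psmb7 (trypsin-like) was measured at 173 to 185 CPM in WT and 156 to 262 CPM in UCP1 KO (0.18 ± 0.10, edgeR adjusted p = 0.152). In dKO libraries Psmb7 was measured at 212 to 255 CPM, above all FGF21 KO libraries at 179 to 209.6 CPM, but the adjusted p of 0.0298 in edgeR missed the threshold. Against the same WT libraries, Psmb7 was called in dKO (0.38 ± 0.10, edgeR adjusted p = 0.00658), where the value for Psmb5 was 1.14 ± 0.12 (edgeR adjusted p = 2.38e-06).

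In the 19S cap, 2 of 6 ATPases (33.3%) were called in UCP1 KO against WT, both higher. Over all genes 25.2% were called in either direction and 13.8% were called higher. All 6 ATPases had positive fold changes (median 0.20). Psmc6 (chromosome 14, 45329788 to 45349705, plus strand) was measured at 89.5 to 98.4 CPM in WT and 112 to 130.4 CPM in UCP1 KO libraries. The groups did not overlap (log2 fold change 0.38 ± 0.05, edgeR adjusted p = 2.23e-05). Psmc2 (chromosome 5, 21785283 to 21803787) was measured at 86.1 to 91.6 CPM in WT and 108 to 124 CPM in UCP1 KO libraries, again without overlap (0.37 ± 0.06, edgeR adjusted p = 9.98e-05). Psmc4 had a similar fold change (0.32 ± 0.12) but a wider spread, from 83.9 to 122.7 CPM in UCP1 KO, and was not called (edgeR adjusted p = 0.0428).

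None of the 11 other cap subunits was called by edgeR or DESeq2, and 1 had an unadjusted p under 0.05 in edgeR. That gene was Psmd4, a ubiquitin receptor, at 104 to 127 CPM in WT and 121 to 165 CPM in UCP1 KO libraries (log2 fold change 0.24 ± 0.09, edgeR adjusted p = 0.0457). Psmd7, a structural partner of the deubiquitinase in the lid, was measured at up to 81.2 CPM in WT and 73.8 to 93.1 CPM in UCP1 KO libraries, which overlap. Over the 31 core and cap subunits together, without the immunoproteasome and Psma8, 3 (9.68%) were called, against 25.2% of all genes. The median log2 fold change of these subunits was 0.04.

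Nfe2l1 (chromosome 11, 96817414 to 96829968, minus strand) is the factor that controls transcription of these genes. It was measured at 564 to 626 CPM in WT BAT and 633, 683, 684, 813 and 951 CPM in UCP1 KO BAT. The lowest UCP1 KO library was just above the highest WT library (log2 fold change 0.36 ± 0.09, edgeR adjusted p = 0.00449). In dKO libraries it was measured at 657 to 772 CPM and in FGF21 KO libraries at 580 to 694 CPM, which overlap (0.17 ± 0.09, edgeR adjusted p = 0.187). The interaction for Nfe2l1 was 0.20 ± 0.13 (edgeR adjusted p = 0.933), so the fold changes on both backgrounds were not shown to differ. The call did not hold when only WT and UCP1 KO libraries were fitted (edgeR adjusted p = 0.0263), nor in 5 of 20 fits without 1 library (WT replicates 1, 4 and 5, UCP1 KO replicates 4 and 5, numbered in order of accession only).

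Promoters were read where members moved together. Of the 50 proteasome genes, 42 had a RefSeq promoter window (GRCm38.p6, 250 bases before to 50 after the start). The antioxidant response element core TGACNNNGC, which Nfe2l1 and related factors bind with small Maf proteins, was searched on both strands. It occurred in 6 of the 42 (14.3%: Psmb5, Psmb6, Psmc6, Psmd9, Psmd12 and Psme4), against 14.0% of 27025 genes. The share in the members is thus that of promoters in general, and the windows of Psmc2 and Psmd5 did not hold these letters. The sites of Psmb5 and Psmc6, which rose in BAT, are shown beside that of Psmb6, which was not called. Each stretch ends before the start of the gene, runs 5′ to 3′ on the gene's strand, and has the site in capitals; in Psmc6 the site reads on the other strand.
Psmb5 (chr14:54618024-54618132, minus strand): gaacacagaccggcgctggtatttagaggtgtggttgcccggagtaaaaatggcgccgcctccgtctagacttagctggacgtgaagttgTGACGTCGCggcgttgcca
Psmc6 (chr14:45329574-45329682, plus strand): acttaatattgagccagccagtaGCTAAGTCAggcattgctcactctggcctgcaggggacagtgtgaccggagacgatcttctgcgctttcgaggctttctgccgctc
Psmb6 (chr11:70525258-70525356, plus strand): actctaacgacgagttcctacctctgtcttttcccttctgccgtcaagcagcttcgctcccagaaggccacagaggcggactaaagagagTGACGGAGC
The interferon-stimulated element core GAAANNGAA, on both strands, occurred in 8 of the 42 (Pomp, Psmb3, Psmb4, Psmc2, Psmd4, Psmd9, Psme1 and Psmg4), against 9.76% of all genes. A match is a string of letters and not a bound site.

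Among the 8 assembly chaperones, 2 (25%) were called, both higher, against 25.2% of all genes in either direction and 13.8% called higher. Of the 8, 4 had positive fold changes. Psmd5, which helps to assemble the base of the cap, was measured at 22.9 to 29.3 CPM in WT and 27.6 to 33.6 CPM in UCP1 KO libraries (log2 fold change 0.28 ± 0.07, edgeR adjusted p = 0.0051). Psmg2, which pairs with Psmg1 to assemble the alpha ring, was measured at 11.0 to 12.7 and 12.3 to 18.0 CPM (0.31 ± 0.09, edgeR adjusted p = 0.00967). The groups overlapped for both genes, and the calls were lost in 6 (Psmd5) and 12 (Psmg2) of 20 fits without 1 library. Both calls were also lost with only the 2 genotypes compared and with a score of skeletal muscle genes as a covariate. That of Psmg2 was lost without the low-count filter as well. Across the other settings the log2 fold changes were 0.25 to 0.30 for Psmd5 and 0.31 to 0.39 for Psmg2. Pomp, the maturation factor of the 20S core, was measured at 58.7 to 67.1 CPM in WT and 57.1 to 66.5 CPM in UCP1 KO (-0.04 ± 0.06, edgeR adjusted p = 0.628).

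Of the activators and the inhibitor, none of 5 was called by edgeR or DESeq2 in UCP1 KO against WT, with 1 unadjusted p under 0.05 in edgeR (Psme3). Psme1 and Psme2, which form the interferon-inducible activator that opens the core without ubiquitin, had log2 fold changes of 0.08 ± 0.08 and -0.12 ± 0.10. Psme3 (0.13), a nuclear activator, Psme4 (0.07), an activator tied to acetylated histones, and the inhibitor Psmf1 (0.19) also missed the threshold. Psmc3ip, which is no subunit, was measured at 1.01 to 1.37 CPM in WT and 1.24 to 2.42 CPM in UCP1 KO (0.66 ± 0.18, edgeR adjusted p = 0.00737).

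On the FGF21 KO background, 4 of 48 proteasome genes (8.33%) were called in dKO against FGF21 KO, all higher in dKO, against 13.5% of all genes. They were Psmb5, Psmc6 (log2 fold change 0.32 ± 0.05, edgeR adjusted p = 0.000216), Psmc2 (0.35 ± 0.06, edgeR adjusted p = 0.000305) and Psmd5 (0.30 ± 0.07, edgeR adjusted p = 0.00485). Psmc3ip was called as well (0.93 ± 0.18, edgeR adjusted p = 0.00118). These genes were also called in UCP1 KO against WT, with other libraries on both sides. The calls of Psmd5 and Psmc3ip were lost with the muscle score (the average over 10 muscle markers of log2 CPM with 0.1 added) as a covariate and in libraries with a score at or under 5, and that of Psmd5 in 6 of 20 fits without 1 library. The fold changes under these 2 settings were 0.33 and 0.37 for Psmd5 and 0.92 and 0.80 for Psmc3ip. Of the 31 core and cap subunits, 29 had positive fold changes, with a median of 0.09. In dKO against WT, which shares its libraries with both other comparisons, 11 of 48 proteasome genes (22.9%) were called, 10 higher and 1 lower, against 21.1% of all genes, and 31 of the 31 core and cap subunits had positive fold changes (median 0.16), 8 of them called.

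Differences between UCP1 KO and dKO, which bear on FGF21 in mice without UCP1, were sought next. In BAT, edgeR called 0 of 48 proteasome genes, against 0.0636% of all genes; 11 had an unadjusted p under 0.05, against 12.9% of all genes, and DESeq2 called 1. All 31 core and cap subunits had lower values in UCP1 KO than in dKO libraries (median log2 fold change -0.12), 6 of them with an unadjusted p under 0.05. The gene called by DESeq2 was Psme1, at 55.5 to 67.4 CPM in UCP1 KO and 42.5 to 54.8 CPM in dKO libraries without overlap (log2 fold change 0.42 ± 0.08, edgeR adjusted p = 0.0344). Psmb8 (0.71 ± 0.26, edgeR adjusted p = 0.284) and Psmb9 (0.67 ± 0.24, edgeR adjusted p = 0.275) had the largest fold changes of those with an unadjusted p under 0.05, with overlapping libraries. FGF21 KO against WT gave 0 called proteasome genes and 0% of all genes in edgeR, with 4 unadjusted p-values under 0.05 and 0 calls in DESeq2. The interaction in BAT gave 0 proteasome genes and 0% of all genes in edgeR, none with an unadjusted p under 0.05 and 0 in DESeq2. Over all 4 genotypes 7 proteasome genes were called (14.6%), against 29.7% of all genes. These were Psmb5, Psmc6, Psmc2, Psme1, Psmd5, Psmd12 and Psmg2.

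Markers of other cells moved with these groups in BAT. UCP1 KO libraries had called rises over WT in 5 of the 10 skeletal muscle markers and in 5 of 6 macrophage markers. For dKO against FGF21 KO the muscle markers had a median log2 fold change of 4.08 with 0 of 10 called in edgeR, and summed to 94.5 to 4715 CPM in dKO against 29.6 to 430.1 CPM in FGF21 KO libraries, and 1 of 6 macrophage markers was called. Lymph node markers had a median of 1.41 there, with 1 of 7 tested called, and 0.18 with none of 7 called by edgeR in UCP1 KO against WT. The summed macrophage markers ranged from 117 to 146 CPM in WT and from 157 to 407 CPM in UCP1 KO libraries, and no marker of either list was at 0 in all libraries of a group. With only the libraries of a low muscle score (5 WT and 3 UCP1 KO libraries), the log2 fold change was 1.01 ± 0.07 for Psmb5, 0.39 ± 0.06 for Psmc6, 0.35 ± 0.05 for Psmc2 and 0.45 ± 0.11 for Nfe2l1, and 5 proteasome genes were called, against 22.8% of all genes. Psmd5 (0.25 ± 0.09, edgeR adjusted p = 0.0368) and Psmc3ip (0.57 ± 0.19, edgeR adjusted p = 0.0289) were not called in these 8 libraries. With the muscle score as a covariate in all libraries, the calls of Psmb5, Psmc2, Psmc6 and Nfe2l1 against WT were kept. Those of Psmd5 and Psmg2 were lost. In the 2 dKO libraries with a low muscle score Psmb5 was at 222 and 245 CPM, above all FGF21 KO libraries. The part of macrophage RNA in these results was not tested. In tissue RNA, fewer cells of a type and less RNA per cell cannot be told apart.

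Of 23 genes that associate with the proteasome or deliver ubiquitin to it, 20 were tested in BAT, 3 rose and 3 fell in UCP1 KO against WT (median log2 fold change 0.03). This is 30.0% called, near the 25.2% of all genes. Rad23b, a shuttle receptor for ubiquitin-tagged proteins, was measured at up to 82.9 CPM in WT and 92.9 to 108 CPM in UCP1 KO libraries (0.36 ± 0.07, edgeR adjusted p = 0.000389). The thioredoxin-like Txnl1, a partner of the cap, rose by 0.32 ± 0.07. The shuttle receptor Ubqln4 fell by 0.37 ± 0.06, from at most 124 CPM in WT down to 86.6 to 104 CPM (edgeR adjusted p = 0.000129), and Shfm1, a small cap subunit, fell by 0.29 ± 0.07. Rad23b, Txnl1 and Ubqln4 were called in dKO against FGF21 KO as well, with log2 fold changes of 0.37, 0.36 and -0.27.

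Of 15 genes that process Nfe2l1 or are related factors, 14 were tested, 4 rose and none fell (median 0.10; edgeR). This is 28.6% called, all of them higher, where 13.8% of all genes were called higher and 25.2% in either direction. Sel1l, a component of the endoplasmic reticulum export complex that frees Nfe2l1, was measured at 79.2 to 92.8 CPM in WT and 114 to 181 CPM in UCP1 KO libraries (0.73 ± 0.09, edgeR adjusted p = 1.21e-05). Mafg, a small Maf partner, rose by 0.58 ± 0.09 and Maff, another, by 1.91 ± 0.41 with overlapping libraries. Ddi2, the protease that cuts Nfe2l1, was measured at 5.17 to 7.64 CPM in WT and 8.94 to 13.0 CPM in UCP1 KO (0.72 ± 0.14). Ddi2 was already at 9.65 to 11.8 CPM in FGF21 KO and at 8.09 to 13.4 CPM in dKO libraries, while Sel1l and Mafg were called on both backgrounds (0.55 and 0.45 in dKO against FGF21 KO).

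The immunoproteasome subunits were uneven in BAT. Psmb8 (chromosome 17, 34197721 to 34201454) was measured at 14.7 to 24.5 CPM in WT and at 15.3, 18.0, 29.1, 35.7 and 37.4 CPM in UCP1 KO libraries. In the same libraries Psmb9 (chromosome 17, 34181987 to 34187764, minus strand) was at 9.48 to 13.6 CPM in WT and 8.53 to 21.0 CPM in UCP1 KO, and Psmb10 (chromosome 8, 105935735 to 105938444) at 15.7 to 20.9 and 14.5 to 24.2 CPM. In each case 2 of the 5 UCP1 KO libraries lay within the range of WT or below it. None of the 3 was called (edgeR adjusted p = 0.097 for Psmb8, 0.163 for Psmb9 and 0.571 for Psmb10), Psmb8 had an unadjusted p under 0.05, and DESeq2 called none.

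**Figure D3:**
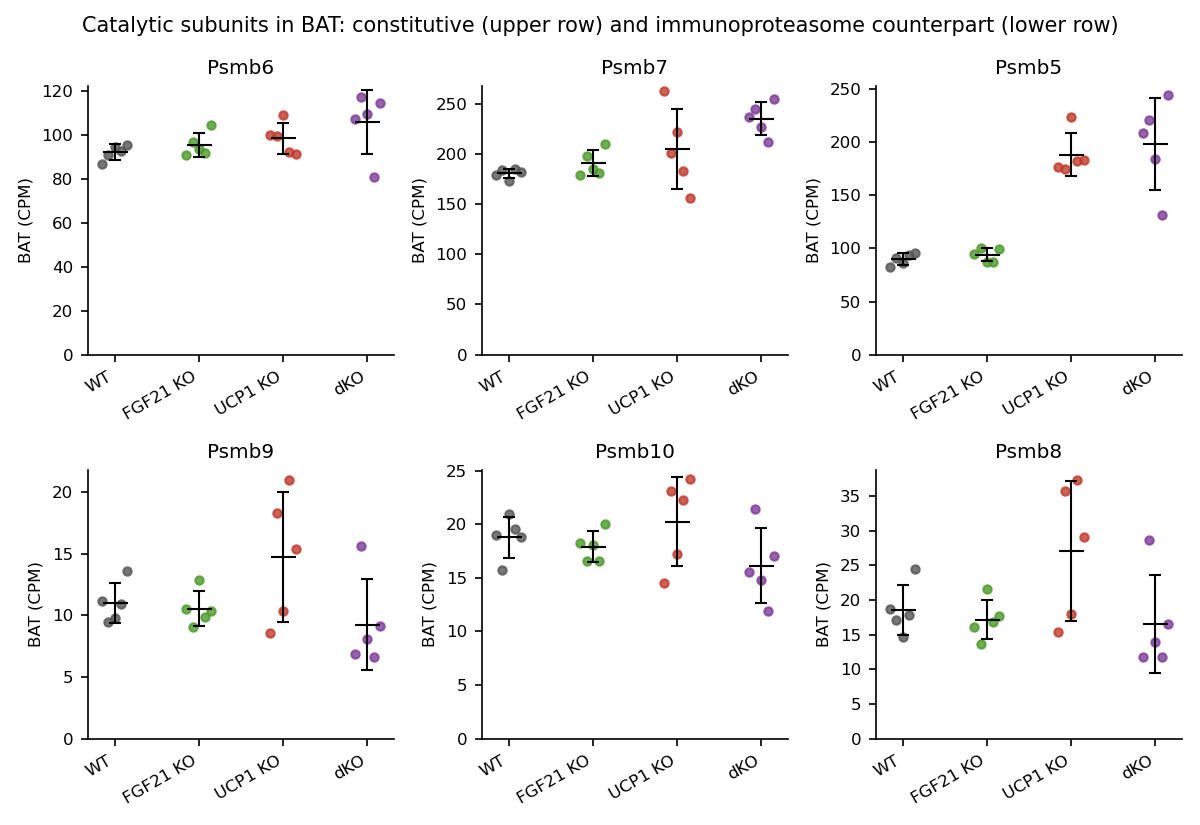
CPM in BAT of the 3 constitutive catalytic subunits (upper panels) and of the immunoproteasome subunit that takes the place of each (lower panels) in 5 libraries per genotype, with mean and SD. Psmb5 in UCP1 KO and dKO lies above all WT and FGF21 KO libraries, whereas Psmb8, Psmb9 and Psmb10 overlap between genotypes.

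On the FGF21 KO background no immunoproteasome subunit was called, and the sign of the fold changes was not stable. The log2 fold change of dKO against FGF21 KO was -0.06 ± 0.26 for Psmb8, -0.19 ± 0.24 for Psmb9 and -0.15 ± 0.14 for Psmb10. In the libraries with a low muscle score they were 0.39, 0.23 and 0.10, also not called. Per kilobase of exon, the median ratio of Psmb8 to Psmb5 was 0.05 in WT BAT (0.045 to 0.068) and 0.047 in FGF21 KO. It was 0.042 in UCP1 KO (0.021 to 0.055) and 0.02 in dKO (0.015 to 0.034), and its denominator Psmb5 rose in both. Medians of the other pairs were higher in UCP1 KO than in WT, with overlapping libraries. Psmb9 to Psmb6 had 0.060 in WT, 0.055 in FGF21 KO, 0.086 in UCP1 KO and 0.041 in dKO. Psmb10 to Psmb7 had 0.212, 0.192, 0.230 and 0.132 in the same order. Companion genes that load the peptides made by immunoproteasomes onto surface molecules were followed as a list of 8, of which 3 (37.5%) were called in UCP1 KO against WT, against 25.2% of all genes. B2m, the light chain of these molecules, rose by 0.85 ± 0.21 and Nlrc5, a transcriptional activator of these genes, rose by 1.26 ± 0.29 in UCP1 KO against WT, both with overlapping libraries, whereas the peptide trimmer Erap1 fell by 0.44 ± 0.09. Tap1, a peptide transporter, was not called (0.67 ± 0.22, edgeR adjusted p = 0.0215). On the FGF21 KO background none of the 8 rose, Erap1 fell, and the median log2 fold change was -0.11. Between UCP1 KO and dKO all 8 had higher values in UCP1 KO (median 0.56), with 7 unadjusted p-values under 0.05 and 0 calls in edgeR. The macrophage markers given above were higher in UCP1 KO than in WT. For UCP1 KO against dKO their median log2 fold change was 0.56, with 0 of 6 called by edgeR. The part of macrophage RNA in these values was not tested.

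In iWAT, Psmb5 again had the largest log2 fold change of the tested members for the libraries labelled UCP1 KO against WT, at 0.92. In this comparison edgeR called 0 of 49 tested proteasome genes, against 0.61% of all genes, while 22 had an unadjusted p under 0.05, as did 14.7% of all genes. DESeq2 called 5 (Psmb3, Psmb5, Psmc4, Psmd8 and Psme4), against 3.49% of all genes. Of the 31 core and cap subunits 31 had positive fold changes, with a median of 0.32, against -0.03 over all genes. In dKO against FGF21 KO 31 of 31 were also positive (median 0.21), and in FGF21 KO against WT 30 of 31 were negative (median -0.17), with none of the 31 called by edgeR or DESeq2 in either and 2 and 0 unadjusted p-values under 0.05 in edgeR. The libraries rich in lymph node genes, described with the immunoproteasome, were 2 of 5 in WT, 4 of 5 in FGF21 KO, 1 of 5 in UCP1 KO and 2 of 5 in dKO. These fold changes share libraries and are not independent of each other.

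Psmb5 in iWAT was measured at 59.3, 63.1, 63.2, 65.9 and 72.3 CPM in WT. In UCP1 KO libraries it was measured at 73.7, 112, 122, 137 and 168 CPM. The lowest UCP1 KO library was just above the highest WT library and the other 4 were well above it (log2 fold change 0.92 ± 0.22, edgeR adjusted p = 0.0332, exact permutation p = 0.00794). Psmd8, a subunit of the cap's lid, and Psme4 were named after their values were seen. Psmd8 was measured at 103 to 119 CPM in WT and 126 to 215 CPM in UCP1 KO (0.68 ± 0.16, edgeR adjusted p = 0.0275). Psme4 was measured at 93.6 to 118 and 122 to 174 CPM (0.62 ± 0.15, edgeR adjusted p = 0.0332). The libraries of none of these 3 genes overlapped. Nfe2l1 was at 344 to 505 CPM in WT and 380 to 670 CPM in UCP1 KO, which overlap (0.33 ± 0.25, edgeR adjusted p = 0.651), and Pomp at 92.4 to 110.6 and 94.8 to 134 CPM (0.24 ± 0.14, edgeR adjusted p = 0.456).

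For UCP1 KO against dKO in iWAT, edgeR called 0 proteasome genes, against 0.466% of all genes, with 15 of 49 unadjusted p-values under 0.05, as had 14.2% of all genes, and 0 calls in DESeq2. Of the 31 core and cap subunits 31 had positive fold changes, with a median of 0.28. Psmb5 was at 48.2, 59.3, 80.4, 86.3 and 95.9 CPM in dKO libraries and overlapped both WT and UCP1 KO (log2 fold change of UCP1 KO against dKO 0.73 ± 0.22, edgeR adjusted p = 0.0958). In FGF21 KO libraries it was at 35.4 to 75.6 CPM. The interaction called 0 proteasome genes in edgeR and 0% of all genes, with none at an unadjusted p under 0.05 and 0 calls in DESeq2, where 2 had an unadjusted p under 0.05. Over all 4 genotypes only Psmb5 was called in edgeR, against 1.74% of all genes.

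Brown adipocyte markers moved with these values in iWAT. The 6 markers summed to 29.7 to 81.9 CPM in WT, 27.1 to 129.3 CPM in dKO and 329 to 2125 CPM in UCP1 KO libraries, with called rises over WT in 4 of the 6. No marker was at 0 in all libraries of a group. Their part in the values of the proteasome genes was not tested. Skeletal muscle markers varied within genotypes in iWAT. The 10 summed to 24.8 to 9915 CPM in WT, 30.6 to 4360 CPM in FGF21 KO, 39.0 to 21658 CPM in UCP1 KO and 37.7 to 793 CPM in dKO libraries. Their median log2 fold change was 1.06 for UCP1 KO against WT and 4.38 for UCP1 KO against dKO, with none called by edgeR. With the muscle score as a covariate the fold change of Psmb5 against WT was 0.92 on the log2 scale (edgeR adjusted p = 0.0398), and again no proteasome gene was called.

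The immunoproteasome in iWAT followed the lymph node genes. The lymph node score is the mean log2 of CPM plus 0.1 over 8 genes of B and T cells. It was 6.45 to 7.67 in 9 libraries (2 WT, 4 FGF21 KO, 1 UCP1 KO and 2 dKO) and -0.61 to 1.61 in the other 11, and none of the 8 genes was at 0 throughout a group. Psmb8 was at 121 to 168 CPM in the 9 libraries and at 59.6 to 106 CPM in the 11, and Psmb9 at 59.0 to 81.4 and 27.9 to 53.8 CPM. Neither gene overlapped between the sets, whereas Psmb10 did, at 52.7 to 67.6 and 34.4 to 54.8 CPM. Psme1, a subunit of the inducible activator, was at 119 to 150.5 and 72.5 to 108 CPM, whereas its partner Psme2 overlapped, at 141 to 198 and 122 to 176 CPM. Nfe2l1 lay the other way, at 232 to 380 and 470 to 670 CPM. The sets were made from marker genes and not by genotype, so these ranges are given as a description.

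**Figure D4:**
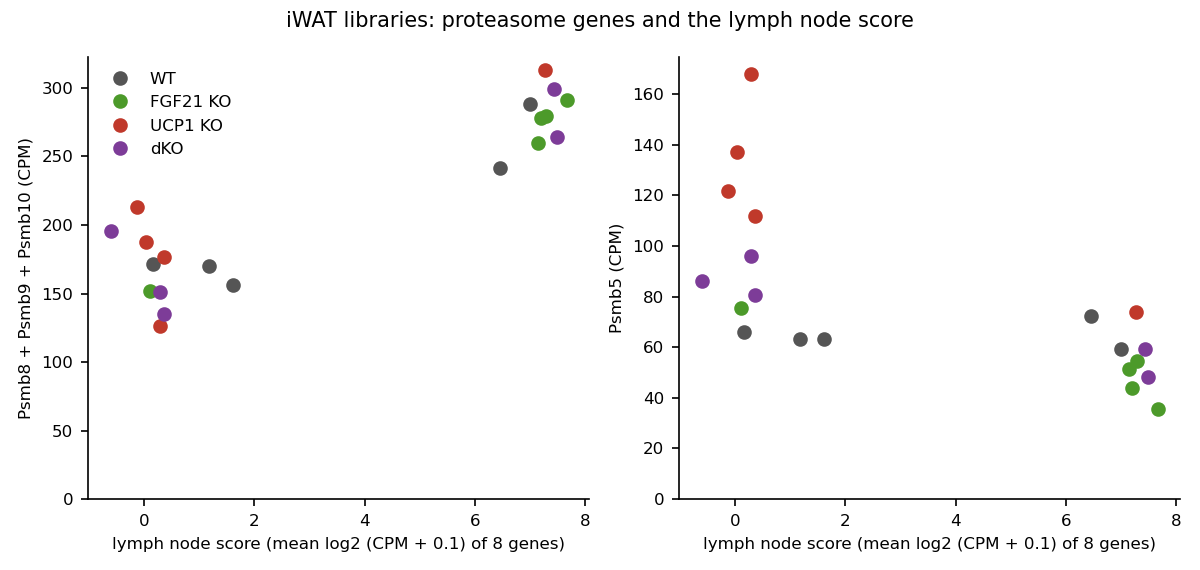
The 20 iWAT libraries by lymph node score (horizontal axis, mean log2 of CPM plus 0.1 over 8 genes), with the summed CPM of Psmb8, Psmb9 and Psmb10 on the left and the CPM of Psmb5 on the right; colours are genotypes. The 9 libraries at a score over 6 hold 241 to 313 CPM of the immunoproteasome subunits and the other 11 hold 126 to 213 CPM, and at low scores Psmb5 is highest in UCP1 KO.

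No immunoproteasome subunit of iWAT was called between genotypes in edgeR. All 3 had positive fold changes in FGF21 KO against WT (median 0.34) and negative ones in dKO against FGF21 KO (median -0.34). The libraries rich in lymph node genes were 4 in FGF21 KO, 2 in WT and 2 in dKO. For UCP1 KO against WT the log2 fold changes were -0.01 ± 0.31 for Psmb8, 0.03 ± 0.30 for Psmb9 and -0.06 ± 0.16 for Psmb10 (edgeR adjusted p from 0.928 to 0.994, none with an unadjusted p under 0.05, and no call in DESeq2). Among the 3 WT and 4 UCP1 KO libraries with low scores, Psmb8 was at 73.2 to 84.5 and 61.5 to 105.5 CPM. The constitutive subunits were also fitted in that set. Using the 11 low-score libraries of all genotypes, edgeR called 4 proteasome genes, with log2 fold changes of 1.05 ± 0.13 for Psmb5 (edgeR adjusted p = 0.00233), 0.74 ± 0.09 for Psme4 (edgeR adjusted p = 0.00268) and 0.72 ± 0.10 for Psmd8 (edgeR adjusted p = 0.00314), and Psmd4. In that fit 3.73% of all genes were called. With the score as a covariate, where 4.9% of all genes were called, 4 proteasome genes were called, Psmb5 (0.73 ± 0.15), Psmd8, Psme4 and Psmc4.

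In liver and muscle no difference in proteasome genes was called. For UCP1 KO against WT in liver, edgeR called 0 of 49 tested proteasome genes, against 0.0694% of all genes, and DESeq2 called 0. In edgeR 4 had an unadjusted p under 0.05 (Psme2, Psmb8, Psmf1 and Psme1), as had 10.2% of all genes. Psmb8 was at 56.4 CPM in 1 UCP1 KO liver library and at 24.4 to 32.3 CPM in the other 4, against 19.8 to 31.2 CPM in WT. The same library was the highest of the UCP1 KO liver libraries for Psme1 (70.5 CPM) and Psme2 (91.5 CPM). Psmb5 was at 50.6 to 61.9 CPM in WT liver and 46.9 to 61.5 CPM in UCP1 KO liver (log2 fold change -0.01 ± 0.08). In muscle, edgeR called 0 of 48, against 0.0265% of all genes, and DESeq2 called 0. In edgeR 0 had an unadjusted p under 0.05, against 9.81% of all genes. Psmb5 was at 69.2 to 79.2 CPM in WT muscle and 68.4 to 79.9 CPM in UCP1 KO muscle (0.03 ± 0.06). Over all 4 genotypes, 0 members were called by edgeR in liver (0.34% of all genes) and 0 in muscle (0.086% of all genes). In each tissue 2 had an unadjusted p under 0.05, as had 11.6% of all genes in liver and 16.3% in muscle.

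The difference between tissues was tested itself, in 1 edgeR fit of the 80 libraries. UCP1 KO minus WT in BAT exceeded the same in liver for Psmb5 by a log2 difference of 1.10 ± 0.20 (edgeR adjusted p = 6.77e-05) and the same in muscle by 1.05 ± 0.20 (edgeR adjusted p = 0.000173). Psmb5 was the only proteasome gene called in either, against 5.72% of all genes for liver and 4.5% for muscle. Between BAT and iWAT, 3 were called, against 11% of all genes, and all 3 had the larger fold change in iWAT. They were Psmd8 (-0.71 ± 0.15, edgeR adjusted p = 0.000419), Psme4 (-0.57 ± 0.14, edgeR adjusted p = 0.00247) and the alpha subunit Psma3 (-0.56 ± 0.15, edgeR adjusted p = 0.00366). In BAT alone, UCP1 KO against WT gave log2 fold changes of 0.00 for Psmd8, 0.07 for Psme4 and -0.12 for Psma3, none of them called. For Psmb5 the fold changes of BAT and iWAT differed by 0.13 ± 0.20 (edgeR adjusted p = 0.718) and were not shown to differ. No label ties the libraries of 1 mouse, so the libraries were taken as independent.

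The levels in WT mice set these changes in context. On a scale set over all 80 libraries and per kilobase of exon, all 31 core and cap subunits were lowest in iWAT, and 20 were highest in muscle, 7 in liver and 4 in BAT. Psmb5 was at 100.4 CPM per kb in muscle, 96.6 in BAT, 82.1 in liver and 45.4 in iWAT. Muscle overlapped with BAT and BAT with liver, so only iWAT stood apart. Nfe2l1 was at 172 CPM per kb in muscle, 104.0 in BAT, 50.7 in iWAT and 31.4 in liver, with no overlap between neighbours in this order. The order of Nfe2l1 therefore differed from that of the subunits, which were lowest in iWAT rather than in liver.

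Psme4 spanned a wide range, at 79.95 CPM per kb in muscle (± 9.71, SD), 25.9 in liver, 16.9 in BAT and 7.78 in iWAT, a 10.3-fold span with no overlap between neighbours. The immunoproteasome subunits had the highest mean in iWAT and the lowest in muscle for all 3, and the mean of liver was above that of BAT, although liver and BAT overlapped for Psmb10. Psmb8 was at 19.2 CPM per kb in iWAT and 1.81 in muscle, and Psmb9 at 8.52 and 0.729. The iWAT values include the 2 WT libraries rich in lymph node genes, and the lowest WT iWAT library held 13.7 CPM per kb of Psmb8, above the highest liver library at 12.1, whereas for Psmb9 iWAT and liver overlapped (lowest iWAT library 6.33, highest liver library 7.33). As a ratio per kilobase of exon, Psmb8 to Psmb5 had a median of 0.355 in WT iWAT, 0.123 in liver, 0.05 in BAT and 0.018 in muscle. Without division by exon length the same medians were 1.34, 0.463, 0.189 and 0.068, so the order of the tissues was the same but the size of a ratio, and any comparison between pairs, depends on the exon lengths. Psmb9 to Psmb6 ran from 0.211 in iWAT to 0.009 in muscle, and Psmb10 to Psmb7 from 0.682 to 0.064.

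**Figure D5:**
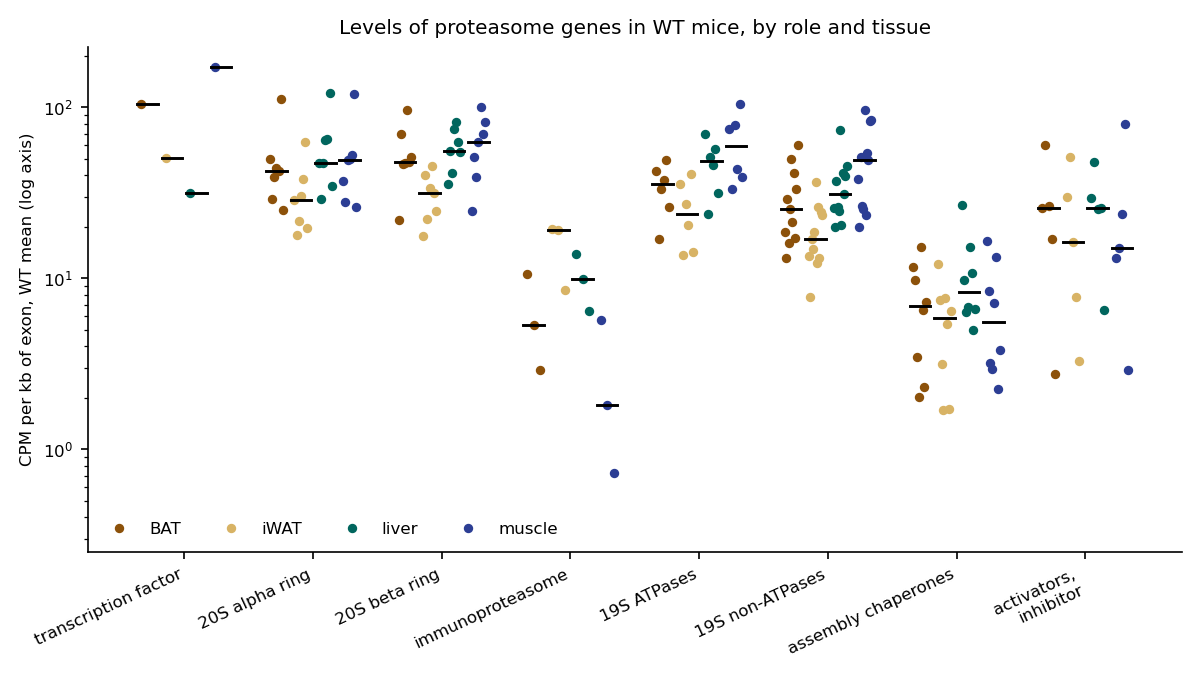
Mean WT levels of single proteasome genes (points) by role and tissue, in CPM per kilobase of exon on a log axis, with the median of each role as a bar; Psma8 and Psmb11 are left out. The core and cap subunits are lowest in iWAT, while the immunoproteasome subunits are highest in iWAT and lowest in muscle.

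Some members lie on the chromosome of a targeted gene or overlap other genes. Psmb10 and Psmd7 lie on the chromosome of Ucp1, 22.6 and 24.3 Mb from it. Psmd8, Psmc4, Psma1 and Psmd13 lie on that of Fgf21, 16.4, 17.6, 68.6 and 95.3 Mb from it. In the annotation 14 of the 52 symbols overlap another gene. Of these, 3 overlap a gene of the same strand, among them Psmb5 with Mir686, and 11 overlap a gene of the other strand, among them Psmb9 with Tap1, Psmb7 with Nek6, Psmd5 with Cutal, Psma3 with 3110056K07Rik and Psme1 with Emc9. The strand setting of the counting is not given in the sources used here, so reads of pairs on opposite strands cannot be told apart, and reads of Psmb5 and Mir686 cannot be told apart by strand. The values of these 14 symbols are uncertain to that degree.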

How the data were processed

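RNA of BAT, iWAT, liver and muscle was sequenced from poly(A)-selected, stranded libraries. The deposited values are raw counts per gene, which the authors made with STAR and HTSeq-count on mm10 with UCSC known genes; whether counting used strand is not given in the sources used here. A row of unknown genes (at most 3.42e-05% of a library) was left out. Of 760 pairs of libraries within a tissue 0 were identical. The members and lists were chosen with earlier results of these data known.

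Genotypes were compared in each tissue with the quasi-likelihood test of edgeR 4.0.16 (R 4.3.3, limma 3.58.1) on 20 libraries with TMM factors, after keeping genes with a highest count above 15, a sum above 75 and at most 10 libraries at 0. P-values were adjusted over all genes tested (Benjamini-Hochberg), and genes were called at an adjusted p under 0.01. Tissues were compared in 1 fit of 80 libraries (at most 40 at 0). SE is the fold change divided by the root of F. CPM used TMM factors within a tissue, and exact two-sided permutation tests used log2 CPM with a prior count of 2. Scripts were tested on simulated data.

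Library values were given for Nfe2l1, Pomp, the catalytic subunits, Psme1 to Psme4, Psmf1 and, per role, the 2 members with the smallest p in BAT of UCP1 KO against WT, and the 4 genes of smallest p of each pathway list were eligible for naming. Alternatives were DESeq2 1.42.0, RLE factors, no filter, an adjusted p under 0.05, only the genotypes compared, marker scores as covariates, leaving out each library and, for ratios of subunits, no division by exon length. Restricting BAT to libraries with a skeletal muscle score at or under 5 was chosen after seeing the data.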

Additional observations from a re-analysis of the deposited data

Results flagged for a closer look

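Single libraries stood far from the other 4 of their group in 13 of 140 groups of 5 examined (members named in BAT and iWAT, and Psmb5, Psmb8, Psmb9 and Psmb10 in liver and muscle), by the gap to the nearest library as a share of the range on the log2 scale; chance flags about 1 in 20 groups. In BAT, Psmb5 was at 224 CPM in UCP1 KO replicate 3 and Psmd4 at 104 CPM in WT replicate 1. Psmb6 was at 81.1 CPM and Psmf1 at 14.3 CPM in dKO replicate 4. Psme1 was at 54.8 CPM in dKO replicate 2 and Psmf1 at 16.7 CPM in FGF21 KO replicate 4. In iWAT, Psmb8 was at 69.3 CPM and Psmb9 at 34.8 CPM in FGF21 KO replicate 2, the FGF21 KO library with a low lymph node score. In liver, Psmb9 was at 44.4 CPM in UCP1 KO replicate 4 and at 9.35 CPM in dKO replicate 2. In muscle, Psmb8 was at 10.8 CPM in UCP1 KO replicate 4 and at 5.37 CPM in WT replicate 1, and Psmb10 at 9.43 CPM in the same WT library.

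The difference of UCP1 KO and WT itself differed between tissues in the edgeR fit of all 80 libraries. On the log2 scale, BAT minus iWAT was -0.71 for Psmd8, -0.57 for Psme4 and -0.56 for Psma3. For Psmb5, BAT minus liver was 1.10 and BAT minus muscle was 1.05.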

How the results depend on the processing

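No called result changed its sign. Of the values not called, 25 signs changed without 1 library and 13 under other settings, among them Psmb8, Psmb9 and Psmb10 for dKO against FGF21 KO in BAT. Counts of calls here include Psmc3ip. Psmb5, Psmc2 and Psmc6 were called in BAT on both backgrounds under every alternative run. For UCP1 KO against WT in BAT the 7 calls became 3 with only the 2 genotypes compared, 4 with the muscle score as covariate and 3 to 7 without 1 library (3 without WT replicate 5, 4 without WT replicate 3 or 4 or UCP1 KO replicate 3, 4 or 5). For dKO against FGF21 KO the 5 calls became 10 at an adjusted p under 0.05, 3 with the muscle score, 8 with low muscle scores only and 4 to 9 without 1 library (9 without dKO replicate 4). UCP1 KO against dKO in BAT went from 0 to 1 at an adjusted p under 0.05 and to 1 with DESeq2. In iWAT, UCP1 KO against WT went from 0 to 3 at an adjusted p under 0.05, 4 with the lymph node score, 4 with low scores only, 5 with DESeq2 and 0 to 3 without 1 library (3 without UCP1 KO replicate 2, which had a high lymph node score), and UCP1 KO against dKO to 1 with the score. BAT minus iWAT went from 3 to 10 at an adjusted p under 0.05 and 13 with low-score libraries only, BAT minus liver from 1 to 5, 4 and, with DESeq2, 2, and BAT minus muscle from 1 to 2 and 4. The causes were not tested. Of 220 called values without 1 library 29 lost the call, as did 11 of 108 under other settings. No paired analysis was possible because the labels carry no replicate numbers; the numbers given here are only names in order of accession. Psma8 in BAT and muscle and Psmb11 everywhere were too low to test.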
